A study of Homo sapiens with 5 samples.

Results

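TAGLN and 9 further genes of the contractile actin cytoskeleton were followed through 5 RNA libraries of SH-SY5Y, a human neuroblastoma cell line. The members were chosen by symbol (TAGLN, TAGLN2, TAGLN3, ACTA2, CNN1, CNN2, TPM1, TPM2, MYL9 and CALD1), around the observation that TAGLN differed in opposite directions in the siSTAU1 and siUPF1 libraries against siControl. All 10 symbols were among the 26364 in the files. The TAGLN values in those libraries are therefore a description and support nothing. The groups held 1 library each: siSTAU1 and siUPF1, named after siRNAs against STAU1 and UPF1, siControl, Differentiation and Nondifferentiation. All were the same line, catalogued as CRL-2266, in medium with 10% serum and 1% penicillin/streptomycin, and the media labels add 50 uM retinoic acid for both Differentiation and Nondifferentiation. STAU1 binds double-stranded RNA and recruits the helicase UPF1 in Staufen-mediated decay, and the series text asks which transcripts increased with both depletions and with differentiation. Libraries were made from total RNA with a QuantSeq kit, which reads the polyadenylated end of each transcript, so that a long transcript yields no more reads than a short one. With 1 library per group there is no replicate check and no p-value. The intervals given here are 95% intervals of counting error alone, from estimated reads, and the spread between cultures is unknown. In bulk RNA, fewer cells expressing a gene and less of its RNA per cell cannot be told apart.

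Contractile actin filaments are bundles of actin that myosin II pulls on, and the members are the proteins that build or regulate them. Transgelins and calponins, which carry a calponin homology domain, bind along the filament. Tropomyosins lie in the groove of the filament and set which myosins can reach it, and caldesmon, until it is phosphorylated, restrains myosin. Many of these genes are read by serum response factor (SRF) with its cofactors of the myocardin family, and they are best known from smooth muscle and fibroblasts. In neuroblastoma they are counted among genes of the mesenchymal, as opposed to the noradrenergic, cell state.

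The SRF site is the CArG box (2 C, then 6 bases of A or T, then 2 G), which was looked for in RefSeq windows of build GRCh38.p14 that reach from 250 bases before to 50 bases after a gene's start. There were 16 such windows for 8 of the members, all but TAGLN and MYL9. A CArG box with at most 1 mismatch in its A/T core lay in windows of 3 of these 8 genes (ACTA2, CNN2 and CALD1), and an exact one in CNN2 alone. Of all genes with RefSeq windows, 9.88% had one with a match of the first kind and 1.604% one of the exact kind. The members had more windows per gene than the 35116 windows of all 27305 genes. Counted by window, 18.75% of the member windows and 8.13% of all windows held a match of the first kind, and 6.25% and 1.29% an exact one. The motif has the same form on both strands, so that 1 scan covered both. The windows of ACTA2 and CNN2 are shown because they hold matches, in a gene that varied much and a gene that varied little between the siRNA libraries, and that of CNN1 because its pattern was the nearest to TAGLN's among the members. Capitals mark the matches.
ACTA2, chr10:88952724-88953023, minus strand: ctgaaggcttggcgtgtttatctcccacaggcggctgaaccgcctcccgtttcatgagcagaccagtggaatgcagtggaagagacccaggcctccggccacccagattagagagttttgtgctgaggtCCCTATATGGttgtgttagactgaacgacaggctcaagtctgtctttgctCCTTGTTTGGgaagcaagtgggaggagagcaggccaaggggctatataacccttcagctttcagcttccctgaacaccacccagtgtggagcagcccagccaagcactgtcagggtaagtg
CNN2, chr19:1026358-1026657, plus strand: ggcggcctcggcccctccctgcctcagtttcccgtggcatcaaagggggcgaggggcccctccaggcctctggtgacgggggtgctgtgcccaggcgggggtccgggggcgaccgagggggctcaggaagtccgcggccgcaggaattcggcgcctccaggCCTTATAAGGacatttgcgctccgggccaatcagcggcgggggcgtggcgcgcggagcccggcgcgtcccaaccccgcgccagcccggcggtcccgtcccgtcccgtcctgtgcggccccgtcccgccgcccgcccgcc
CNN1, chr19:11538601-11538900, plus strand: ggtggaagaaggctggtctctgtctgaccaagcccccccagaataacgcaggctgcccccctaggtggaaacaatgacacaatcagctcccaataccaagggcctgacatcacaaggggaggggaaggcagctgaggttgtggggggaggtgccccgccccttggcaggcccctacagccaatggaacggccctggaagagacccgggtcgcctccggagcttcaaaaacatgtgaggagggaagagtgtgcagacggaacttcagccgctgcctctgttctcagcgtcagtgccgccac
In ACTA2 the match CCCTATATGG begins at position -121 and the match CCTTGTTTGG at -71 from the start site, each with 1 mismatch. In CNN2 the exact match CCTTATAAGG begins at -89. The CNN1 window held none. A match describes these letters and is not evidence of binding.

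The 3 transgelins differ in where they are usually found: TAGLN (SM22-alpha) is a smooth muscle and fibroblast protein, TAGLN2 is broadly expressed and TAGLN3 is the neuronal form. TAGLN stood at 6.27 in siSTAU1, 9.41 in siUPF1, 7.90 in siControl, 6.47 in Differentiation and 8.13 in Nondifferentiation, as deposited log2 values. Its siUPF1 value was the highest of the 5, and siSTAU1 and Differentiation were the lowest. Behind these values stood an estimated 64 reads in siSTAU1, 649 in siUPF1, 202 in siControl, 130 in Differentiation and 270 in Nondifferentiation. TAGLN2 stood at 15.07 in siSTAU1, 15.47 in siUPF1, 15.24 in siControl, 14.21 in Differentiation and 15.76 in Nondifferentiation. It is abundant in every library, and its Differentiation value lies apart below the other 4. TAGLN3 stood at 10.01 in siSTAU1, 9.49 in siUPF1, 9.66 in siControl, 9.15 in Differentiation and 10.02 in Nondifferentiation. Among the siRNA libraries its order is the reverse of TAGLN's, with siSTAU1 highest and siUPF1 lowest. In linear terms TAGLN was 0.224% of TAGLN2 in siSTAU1, its lowest share, and 1.502% in siUPF1, its highest.

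ACTA2, the smooth muscle alpha-actin, stood at 7.06 in siSTAU1, 8.67 in siUPF1, 7.79 in siControl, 8.20 in Differentiation and 8.54 in Nondifferentiation. Its highest value was in siUPF1 and its lowest in siSTAU1, as for TAGLN, but its Differentiation value lay above siControl. CNN1, the calponin of smooth muscle, stood at 8.58 in siSTAU1, 9.74 in siUPF1, 8.94 in siControl, 8.002 in Differentiation and 8.99 in Nondifferentiation. Of the members CNN1 came closest to TAGLN's order, with siUPF1 highest and only siSTAU1 and Differentiation changing places. CNN2, the calponin of many non-muscle cells, stood at 10.46 in siSTAU1, 10.82 in siUPF1, 10.69 in siControl, 11.16 in Differentiation and 10.57 in Nondifferentiation. Its Differentiation value was the highest, opposite to CNN1. GENCODE 29 names 11 pseudogenes after CNN2 and 1 after TAGLN2, whose reads could mix with those of the parent gene, so the values of these 2 genes are less certain.

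Tropomyosin 1 (TPM1) stood at 13.26 in siSTAU1, 13.98 in siUPF1, 13.59 in siControl, 13.69 in Differentiation and 13.26 in Nondifferentiation. The siUPF1 value was the highest, and siSTAU1 and Nondifferentiation shared the lowest place. Tropomyosin 2 (TPM2) was rare, at 5.06 in siSTAU1, 5.99 in siUPF1, 5.53 in siControl, 7.10 in Differentiation and 6.27 in Nondifferentiation, from an estimated 26, 58, 36, 194 and 74 reads in that order of libraries. Caldesmon (CALD1) stood at 12.97 in siSTAU1, 13.05 in siUPF1, 13.25 in siControl, 13.40 in Differentiation and 12.71 in Nondifferentiation. Both TPM2 and CALD1 were highest in Differentiation. MYL9, a regulatory light chain of myosin II, was listed at 0 in all 5 libraries. TPM1 makes transcripts with alternative last exons, and a value per symbol does not separate them.

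**Figure D1:**
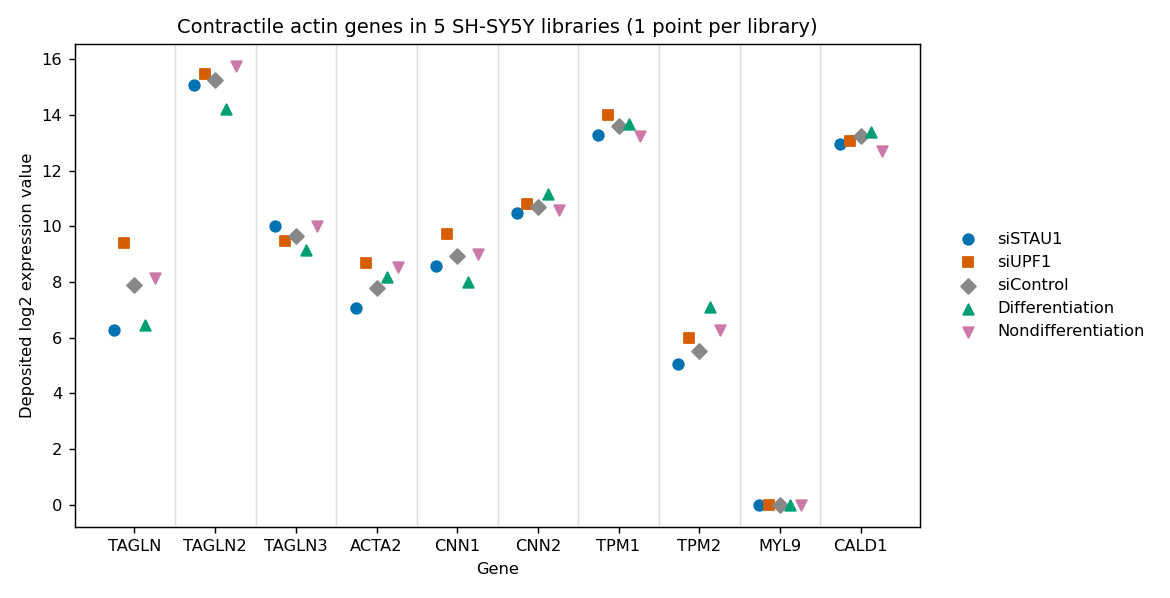
Deposited log2 expression value (y axis) of the 10 contractile actin genes (x axis), 1 point for each of the 5 libraries, with no error bars because each group had 1 library. TAGLN lies at 6.27 in siSTAU1 and 9.41 in siUPF1, TAGLN2 is lowest in Differentiation, and MYL9 is listed at 0 throughout.

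The order of libraries was resolved for most neighbouring values, as far as counting error goes. Of 36 pairs of libraries next to each other in the order of 1 of the 9 detected members, 10 had a counting interval of the difference that included 0. For TAGLN, Differentiation and siSTAU1 were such a pair, 0.21 apart with an interval from -0.23 to 0.64, and so were Nondifferentiation and siControl, 0.23 apart with an interval from -0.03 to 0.49. For ACTA2, siUPF1 and Nondifferentiation were 0.14 apart with an interval from -0.07 to 0.35. For TPM2, Nondifferentiation, siUPF1, siControl and siSTAU1 formed a chain of 3 unresolved steps. No neighbouring values of TAGLN2 or CALD1 were unresolved in this sense.

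Across the 3 siRNA libraries TAGLN had a range of 3.15 log2 units, the value its choice rests on. ACTA2 had a range of 1.61, CNN1 1.16, TPM1 0.71, TAGLN3 0.53, TAGLN2 0.40, CNN2 0.35 and CALD1 0.28. Over the 9198 genes that were above 0 in every library and reached a log2 value of 7.81 in at least 1, the median siRNA range was 0.27, and 0.315% had a range as large as that of ACTA2, 1.20% as large as that of CNN1 and 47.3% as large as that of CALD1. These are the libraries the choice used, and among them ACTA2 reached that level in siUPF1 alone, so the shares are a description. With Differentiation and Nondifferentiation added, the ranges of TAGLN and ACTA2 stayed at 3.15 and 1.61, and that of TAGLN2 grew to 1.54. TPM2, which did not reach that level, had a siRNA range of 0.93 from few reads.

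The siRNA against STAU1 came with a lower STAU1 value, 11.34 in siSTAU1 and 12.87 in siControl, and that against UPF1 with a lower UPF1 value, 9.20 in siUPF1 and 10.74 in siControl. A gene counted as measured in a comparison when the larger of its 2 values reached the median of all nonzero values of both libraries, between 7.76 and 7.84. It was called higher or lower past 2-fold, which is 1 on the log2 scale. In siSTAU1 against siControl 7 of the 10 members were measured, and 1, TAGLN, was lower, where 0.106% of 8454 measured genes were lower and 0.0946% were higher. TAGLN had a log2 fold of -1.63 (interval -2.03 to -1.22), the lowest of all measured genes. It was above the floor in siControl alone. The other measured members were CNN1 at -0.37, TPM1 at -0.32, CALD1 at -0.28, CNN2 at -0.23, TAGLN2 at -0.17 and TAGLN3 at 0.35. TAGLN3 was the only measured member above 0. ACTA2, at -0.73 (interval -1.06 to -0.39), and TPM2, at -0.47 (interval -1.20 to 0.26), lay below the floor in both libraries and were not called. The median of the 7 was -0.28, beside 0.01 over all measured genes. This comparison was used in choosing the genes, so nothing is read from the count.

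In siUPF1 against siControl 8 members were measured, and 1, again TAGLN, was higher, where 0.401% of 8475 genes were higher and 0.142% were lower. Its log2 fold was 1.52 (interval 1.29 to 1.74), a 2.86-fold higher value and the fourth highest of all measured genes. ACTA2 followed at 0.89 (interval 0.63 to 1.14) and CNN1 at 0.79 (interval 0.62 to 0.96). Both lay short of 2-fold and in the upper part of the distribution: 0.720% of measured genes had a fold at least as high as that of ACTA2, and 1.09% one as high as that of CNN1. ACTA2, at 7.79 in siControl, lay below the floor of 7.84 there. It was measured through siUPF1 alone, so its place in the distribution is a description. TPM1 had 0.39, TAGLN2 0.23, CNN2 0.13, TAGLN3 -0.18 and CALD1 -0.20. TPM2, below the floor, had 0.46 with an interval from -0.14 to 1.06. The median of the 8 was 0.31, beside -0.01 over all genes. This comparison, too, was used in the choice. Both knockdown comparisons share the siControl library.

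The 2 knockdown libraries were also set against each other, which leaves siControl out. In siUPF1 against siSTAU1 3 of 8 measured members were higher and 0 lower, where 0.554% of 8486 genes were higher and 0.283% were lower. TAGLN had 3.15 (interval 2.78 to 3.52), the highest of all measured genes and an 8.85-fold higher value. ACTA2 had 1.61 (interval 1.31 to 1.91) and CNN1 1.16 (interval 0.98 to 1.34). Short of 2-fold were TPM1 at 0.71, TAGLN2 at 0.40, CNN2 at 0.35 and CALD1 at 0.09. TAGLN3 was lower in siUPF1, at -0.53 with an interval from -0.67 to -0.38. TPM2 was below the floor at 0.93. TAGLN, at 6.27, and ACTA2, at 7.06, lay below the floor of 7.84 in siSTAU1 and were measured through siUPF1 alone, where they were high. As this difference is also built from the same libraries that chose TAGLN, it is given as a description and nothing is read from the count.

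Nondifferentiation gave another library without a knockdown to set the members against. In siControl against Nondifferentiation 0 of 8 measured members passed 2-fold, where 0.222% of 8547 genes were higher and 0.573% were lower. The members that differed most were ACTA2 at -0.75, CALD1 at 0.54 and TAGLN2 at -0.52, while TAGLN had -0.23 and CNN1 -0.05. Against Nondifferentiation, siSTAU1 had TAGLN at -1.86 and ACTA2 at -1.47 past 2-fold, where 0.631% of 8555 genes were lower. Both were below the floor in siSTAU1, as ACTA2 was in siControl, and were measured through Nondifferentiation alone. Against the same library siUPF1 had TAGLN at 1.29 past 2-fold, where 0.537% of 8563 genes were higher, CNN1 at 0.75 and TPM1 at 0.72. ACTA2 was at 0.14, where siUPF1 against siControl gave 0.89. TAGLN thus lay past 2-fold from both libraries in both knockdowns. Its 2 knockdown values are those that chose it, and its siControl and Nondifferentiation values lay 0.23 apart, so the second reference adds no support. ACTA2 had lower values in siSTAU1 than in siControl or Nondifferentiation, and its difference in siUPF1 depended on which of them it was set against.

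Differentiation against Nondifferentiation shares no library with the siControl comparisons that chose the genes. It shares Nondifferentiation, and its TAGLN value of 8.13, with the preceding comparisons. Of 8 measured members 2 were lower and 0 higher, where 10.9% of 9064 measured genes were lower and 10.4% were higher. TAGLN had -1.65 (interval -1.96 to -1.35), a 3.15-fold lower value, and TAGLN2 had -1.54 (interval -1.57 to -1.52), a 2.92-fold lower value. In Differentiation TAGLN lay below the floor and was measured through Nondifferentiation alone. CNN1 was just short of 2-fold at -0.99 (interval -1.18 to -0.79; past it once the median of all genes or of genes of similar GC was subtracted), TAGLN3 had -0.87 and ACTA2 -0.34. All 3 transgelins, CNN1 and ACTA2 therefore had lower values in Differentiation. The remaining 3 measured members had higher values, short of 2-fold: CALD1 at 0.69, CNN2 at 0.59 and TPM1 at 0.43. TPM2 had 0.83 (interval 0.44 to 1.22), below the floor. The median of the 8 was -0.60, beside 0.02 over all measured genes. Folds of this size were common between these libraries: the share of members called lower rests on 2 genes, and TAGLN stood 384th from the bottom of the ranking.

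**Figure D2:**
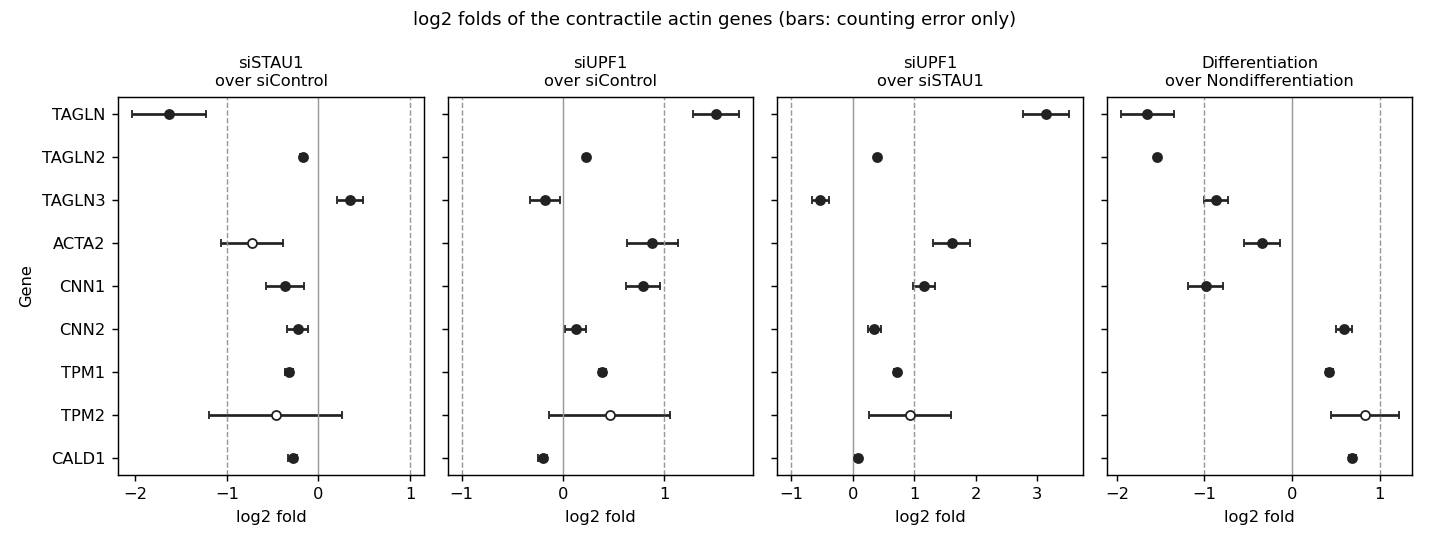
log2 fold (x axis) of the 9 detected members (y axis) in 4 comparisons, with horizontal bars for the 95% interval of counting error only, open circles for members below the measured floor, a solid line at 0 and dashed lines at 2-fold. TAGLN lies at -1.63 in siSTAU1 and 1.52 in siUPF1 against siControl, and at -1.65 in Differentiation against Nondifferentiation, where CNN2, TPM1 and CALD1 lie above 0.

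Reads of overlapping genes bear on how these values can be read, because the labels do not say whether reads were counted by strand. TAGLN overlaps PCSK7, a proprotein convertase gene annotated on the opposite strand. PCSK7 stood at 8.04 in siSTAU1, 8.03 in siUPF1, 7.91 in siControl, 8.12 in Differentiation and 8.16 in Nondifferentiation. It was nearly level, so that TAGLN lay 1.77 below it in siSTAU1, 1.39 above it in siUPF1 and 0.02 below it in siControl. The noncoding LOC100652768, which also overlaps TAGLN, had 7.29 with siSTAU1, 7.63 with siUPF1, 7.36 with siControl, 8.83 with Differentiation and 7.55 with Nondifferentiation. Its Differentiation value was the highest, where TAGLN was lower than in Nondifferentiation. SIDT2, the nearest gene on one side, lay at most 0.04 above LOC100652768 in any library. RNF214, the nearest on the other, had 9.62 with siSTAU1, 9.52 with siUPF1, 9.78 with siControl, 9.87 with Differentiation and 9.62 with Nondifferentiation. ACTA2 overlaps the antisense gene ACTA2-AS1 and the death receptor gene FAS, both annotated on the opposite strand. ACTA2-AS1 stood at 5.995 in siSTAU1, 7.64 in siUPF1, 6.76 in siControl, 7.07 in Differentiation and 7.51 in Nondifferentiation. In linear terms this was between 45.9% and 49.2% of ACTA2 in every library, so the values of the 2 symbols moved as one and their reads cannot be told apart here. FAS stood at 3.17 in siSTAU1, 5.29 in siUPF1, 5.04 in siControl, 4.28 in Differentiation and 6.46 in Nondifferentiation, without a fixed ratio to ACTA2.

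Genes with a pattern like TAGLN's were ranked by the Euclidean distance between log2 values centred on each gene's mean, over 5 libraries and 9198 genes. The 5 nearest were PAK4 at 1.32, CNN1 at 1.498, CYB561 at 1.58, DNAJC25 at 1.60 and DUSP26 at 1.62. PAK4 is a kinase that acts on the actin cytoskeleton, CYB561 a cytochrome of secretory granule membranes, DNAJC25 a co-chaperone and DUSP26 a phosphatase. PAK4 stood at 7.77 in siSTAU1, 9.24 in siUPF1, 9.09 in siControl, 7.78 in Differentiation and 9.15 in Nondifferentiation. It shared the low siSTAU1 and Differentiation values of TAGLN but hardly differed between siUPF1 and siControl. Among the other members ACTA2 was the 29th nearest and TAGLN2 the 62nd, while CALD1 was the 6280th, at a distance of 2.79. The nearest distances are thus not small beside that of a gene far down the ranking. DUSP26 had 9.10 in siSTAU1 and 9.29 in siControl, where TAGLN differed more. The distances also rest on the siRNA values that chose TAGLN, so the ranking is a description.

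**Figure D3:**
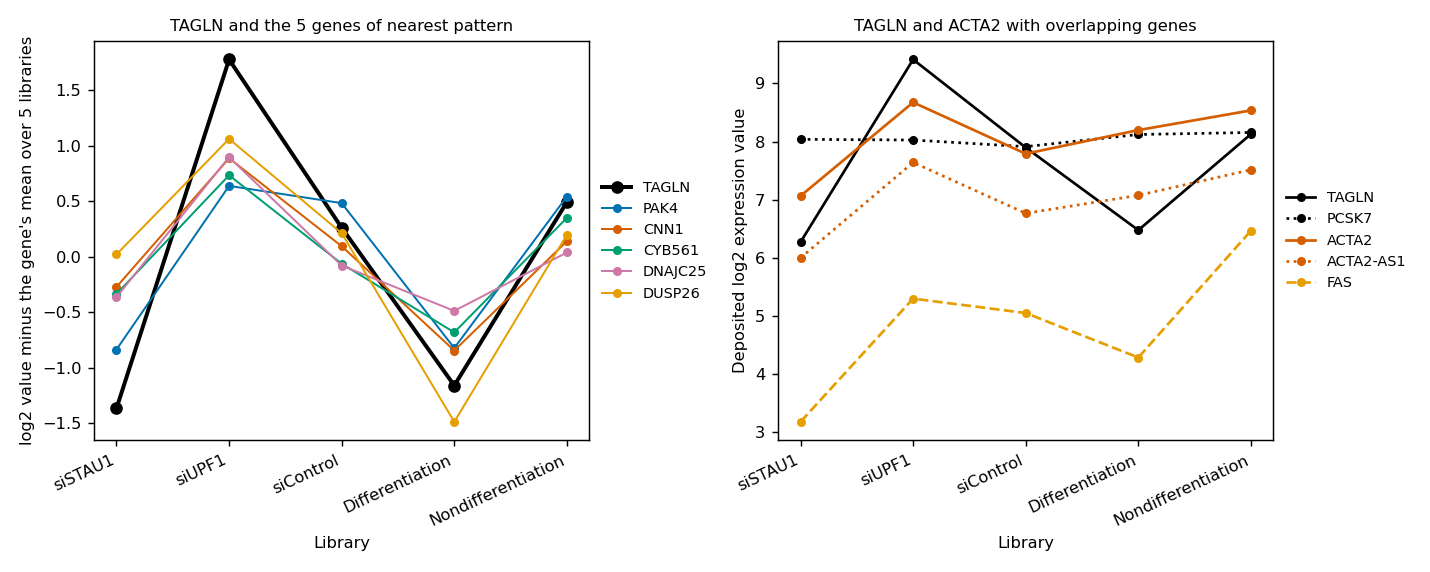
Left, log2 value minus the gene's mean over 5 libraries (y axis) for TAGLN and the 5 genes of nearest pattern, by library (x axis). Right, deposited log2 values of TAGLN and ACTA2 with the genes that overlap them, where lines only join points of 1 gene. PCSK7 is nearly level while TAGLN is not, and ACTA2-AS1 runs parallel to ACTA2.

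The rest of the contractile and SRF pathway, 74 genes in 6 lists, held 1 gene past 2-fold after either siRNA. In siSTAU1 against siControl 0 of 48 measured genes passed 2-fold, where 0.106% of all measured genes were lower and 0.0946% higher. Their median was -0.02. In siUPF1 against siControl 1 of 49 was higher and 0 lower, where 0.401% and 0.142% of all measured genes were, and the median was 0.11. That gene was PTRF, a coat protein of caveolae, at 9.73 in siUPF1 and 8.31 in siControl, with a log2 fold of 1.41. Its siUPF1 value was close to the 9.50 of Nondifferentiation, where siControl itself was 1.19 lower.

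Among the other actins only the cytoplasmic forms were measured. ACTB had -0.03 in siSTAU1 and 0.17 in siUPF1 against siControl, and ACTG1 had 0.09 and 0.35. Of the muscle forms, ACTC1 was listed at 0 and ACTA1 reached at most 1.49, while the smooth muscle gamma-actin ACTG2, under the floor, had 4.15 with siSTAU1, 6.14 with siUPF1 and 6.04 with siControl. ACTB and ACTG1 have many processed copies in the genome, which makes their values less certain. Of the other thin-filament genes, TPM3 and TPM4 had 0.02 and -0.03 in siSTAU1 and 0.18 and 0.17 in siUPF1, CNN3 had 0.31 and 0.15, and smoothelin (SMTN), a smooth muscle protein, had -0.74 in siSTAU1 and -0.09 in siUPF1. None of these passed 2-fold.

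Myosin II and its control genes held 11 measured members. In siSTAU1 the lowest were the phosphatase subunit PPP1R12A at -0.43 and the kinase ROCK1 at -0.35, and the highest RHOA at 0.24. In siUPF1 the highest was MYLK, the light chain kinase, at 0.59, followed by the light chain MYL6 at 0.35. Of the cross-linkers and adhesion genes 15 were measured in siSTAU1, between -0.27 for zyxin (ZYX) and 0.25 for the actinin ACTN4. In siUPF1 the list ran from -0.39 for talin 1 (TLN1) to 0.76 for PDLIM7, an adaptor of stress fibres. SRF itself had -0.25 in siSTAU1 and -0.03 in siUPF1, its cofactor MKL1 had -0.25 and -0.17, and MKL2 had 0.40 and -0.09. Myocardin (MYOCD) was listed at 0 in all 5 libraries.

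In Differentiation against Nondifferentiation 5 of 48 measured pathway genes were higher and 1 lower, where 10.4% and 10.9% of all measured genes were, and the median was 0.18. SKIL, a repressor of TGF-beta signalling, stood at 12.54 in Differentiation and 11.05 in Nondifferentiation, a log2 fold of 1.49. The others were MYLK at 1.33, PDLIM5 at 1.19, MKL1 at 1.17 and SMAD7 at 1.01. VIM, which encodes the intermediate filament vimentin, was the lower one at -1.25. Myosin II genes had a median of 0.57 over 11 members, with the heavy chain MYH10 at 0.84, while ACTB had -0.56 and TPM4 -0.65. SRF had 0.22. Beside the lower transgelin and CNN1 values in Differentiation, 7 measured myosin II genes lay above 0 and 4 below, with MYH9 lowest at -0.25. MYH10 was short of 2-fold.

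**Figure D4:**
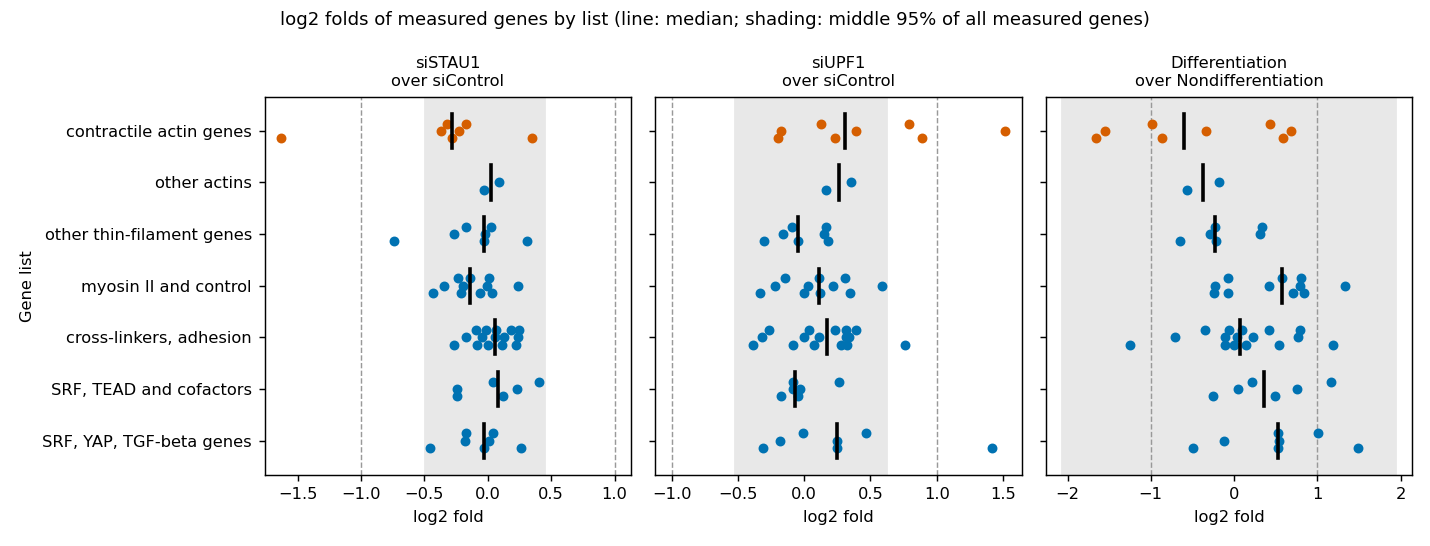
log2 fold (x axis) of each measured gene by gene list (y axis) in 3 comparisons, with a vertical black line at the list's median, grey shading over the middle 95% of all measured genes and dashed lines at 2-fold. TAGLN at -1.63 and 1.52 and PTRF at 1.41 lie past 2-fold in the siRNA comparisons, and the other pathway genes lie inside it.

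Markers of other cells were read beside these values. The noradrenergic markers that define the main state of SH-SY5Y were detected in all 5 libraries, with a summed level of 15.26 in Differentiation and between 15.65 and 15.80 in the other 4 on the log2 scale. In Differentiation against Nondifferentiation 3 of these 9 were lower and 1 higher, where 10.9% and 10.4% of all measured genes were. Their median was -0.76. TH, the enzyme that begins catecholamine synthesis, stood at 5.58 in Differentiation and 8.82 in Nondifferentiation, and the transcription factor ISL1 at 8.99 in Differentiation and 11.89 in Nondifferentiation. DBH was the other lower one, and the granin CHGA was the higher one, at 8.46 in Differentiation and 6.87 in Nondifferentiation. The similar sums hide that siControl also differed from Nondifferentiation. Of 8 markers measured between these libraries 2 were lower, TH at -2.13 and DBH at -1.12, and 0 higher, where 0.573% of all measured genes were lower. The 7 smooth muscle markers outside the members summed to between 12.39 and 12.59, nearly all of it from SYNPO2, at 12.31 to 12.45. The defining MYOCD was listed at 0 throughout, DES reached no more than 0.26, and MYH11 stood between 6.68 and 7.79. Of 12 fibroblast and pericyte markers 1 was at 0 in all libraries, and their summed level was 11.12 in siSTAU1, 11.07 in siUPF1, 10.81 in siControl, 12.43 in Differentiation and 10.89 in Nondifferentiation. In siUPF1 against siSTAU1 4 were measured and 1 was lower, where 0.283% of all measured genes were lower and 0.554% higher. The lower one was LUM at -1.05, with 8.35 in siSTAU1 and 7.30 in siUPF1, opposite to TAGLN. The other 3 were above 0, short of 2-fold. DCN, under the floor, had 6.34 in siSTAU1 and was at 0 in siUPF1. COL1A2, also under the floor, had 6.16 in siSTAU1 and 6.87 in siUPF1. Of the 4 measured in Differentiation against Nondifferentiation, COL3A1, PDGFRA and PDGFRB were higher and S100A4 was lower, at -1.93. Of all measured genes 10.4% were higher and 10.9% lower there. LUM, under the floor in that comparison, stood at 4.17 in Differentiation and 6.40 in Nondifferentiation. COL1A2 stood at 2.38 in Differentiation and 4.35 in Nondifferentiation. The other way, also under the floor, COL1A1 stood at 5.96 in Differentiation and 4.28 in Nondifferentiation. FAP stood at 4.74 in Differentiation and at 0 in Nondifferentiation. The 10 epithelial markers summed to 9.26 in siSTAU1, 7.27 in siUPF1, 6.01 in siControl, 7.21 in Differentiation and 6.01 in Nondifferentiation, with KRT18 at 7.56 and KRT8 at 7.53 in siSTAU1. The Schwann markers, with SOX10 listed at 0, summed to between 5.54 and 7.07, and those of blood and endothelium, with PTPRC listed at 0, to between 6.14 and 7.88. The part of these markers in the member values was not tested. GC content also moved with the folds of all genes in some comparisons. In siSTAU1 against siControl the richest GC bin had a median log2 fold of 0.01 and the poorest 0. In siControl against Nondifferentiation the richest had -0.11 and the poorest 0.04. In siUPF1 against siControl measured genes in the richest of 20 GC bins had a median log2 fold of 0.12, those in the poorest -0.12, and the transcripts of TAGLN and CNN1 had 56.3% and 60.0% GC, where the median of measured genes was 48.5%. With the median of genes of similar GC subtracted, TAGLN had 1.48, ACTA2 0.84 and CNN1 0.68 in that comparison. In Differentiation against Nondifferentiation the richest bin had 0.27 and the poorest -0.07, and the same step took CNN1 past 2-fold, to -1.23.

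The 3 prime untranslated region, to which STAU1 can bind, was shorter than the median in 8 of the 10 members. In the GENCODE 29 transcript with the longest coding sequence it was 149 bases in ACTA2, 419 in TAGLN and 528 in CNN1. It was 336 bases in TAGLN3, 693 in TAGLN2, 740 in TPM1, 1001 in CALD1 and 1168 in CNN2, 233 in the little expressed TPM2 and 2198 in the undetected MYL9. The median over measured genes was 1023, and all members but CNN2 and MYL9 lay below it. No relation to the folds was tested.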

How the data were processed

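The authors deposited 1 log2 expression value per gene symbol and library. The submitters' processing notes name Bowtie2, edgeR and build hg19, with no role or version. No source used here gives the counting tool, the annotation or how strand was treated. The deposited log2 values share 1 distribution over the 5 libraries (highest value 18.01 in each), the pattern of quantile normalization, which is inferred from the values and removes differences in total RNA. Depth is not given. Reads were estimated by taking the kth distinct nonzero value of a library as k reads up to 300, and above that by dividing the linear value by the worth of a read there (0.732 linear units in Differentiation to 1.17 in siControl). Counting errors are Poisson errors of these reads. Folds are differences of deposited values, called past 2-fold in measured genes. The members and all gene lists were chosen with earlier results of these data known. The text names all members, STAU1 and UPF1, up to 2 highest and 2 lowest genes of a described list, genes overlapping members or next to TAGLN, and the 5 nearest patterns. Further list genes and markers were named after their values were seen. No positions of hg19 are printed. RefSeq and GENCODE 29 serve for names, windows and transcript features, and 98.7% of measured genes had a transcript there, by symbol or unique RefSeq synonym. Protein sequences were not analysed here, and 1 pathway gene and 1 marker gene are not reported here. Steps were tested on simulated data. The tools were Python 3.11.15, numpy 2.4.6 and pandas 2.3.3, with matplotlib 3.10.9 for figures.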

Additional observations from a re-analysis of the deposited data

How the results depend on the processing

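No paired analysis was possible because each group had 1 library. No called member changed direction under any alternative run, but some members short of 2-fold did with Nondifferentiation as the reference. In siSTAU1 CALD1 went from -0.28 to 0.25, TPM1 from -0.32 to 0.006 and TAGLN3 from 0.35 to -0.005. In siUPF1 TAGLN2 went from 0.23 to -0.29 and CALD1 from -0.20 to 0.34. Past 2-fold, the counts for siSTAU1 against siControl, siUPF1 against siControl, siUPF1 against siSTAU1, Differentiation against Nondifferentiation and siControl against Nondifferentiation are given in that order. Subtracting the median fold or adding 20 to the linear values kept every count within 1.5 times, with CNN1 passing 2-fold as another member in Differentiation under the median. With the floor at the upper quartile, which left 4 or 5 members measured and removed TAGLN, members called were 0, 0, 0, 1 and 0, other pathway genes 0, 0, 0, 5 and 1, and all genes 3, 12, 19, 1000 and 22. Without a floor, members called were 1, 1, 3, 2 and 0, pathway genes 4, 7, 8, 13 and 7, and all genes 1414, 1514, 1657, 4375 and 1527. At 1.5-fold, members called were 1, 3, 4, 6 and 1, pathway genes 1, 3, 3, 15 and 9, and all genes 195, 386, 452, 3947 and 467. With Nondifferentiation as the reference, siSTAU1 had 2 members, 2 pathway genes and 78 genes in all past 2-fold, and siUPF1 had 1, 2 and 117. Removing the GC trend, an alternative chosen after seeing the data, kept every count within 1.5 times. An exact CArG box was found in 1 member gene and a box with 1 mismatch allowed in 3. Low reads limit TPM2, and the cause of these shifts beyond fewer or more genes tested was not tested.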
